A study of Mus musculus with 4 samples.

Results

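The peaks described here are the methylated regions nearest to the centromeres of the mouse autosomes. They were taken by position alone, as every peak of a MeDIP-seq list that starts before 6 Mb on chromosomes 1 to 19 of the mouse build mm9. Sequence in that build begins at 3 Mb, so each autosome contributes a window of 3 Mb and the 19 windows together span 57.0 Mb. The windows held 3926 of the 167325 peaks listed for T2D islets and 3889 of the 167712 peaks for control islets. They held 3722 of 178584 peaks for T2D sperm and 3779 of 177342 peaks for control sperm, which made 15316 of 690963 peaks over the 4 lists. The rest of the same autosomes, 2358.1 Mb from the 6 Mb boundary to the last listed peak, was the comparison throughout.

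Mouse chromosomes are telocentric, which means that the centromere sits at one end and the numbering of each chromosome starts there. The centromere itself is made of long arrays of satellite repeats that genome assemblies leave out, and the first assembled sequence therefore borders pericentromeric heterochromatin. In somatic cells this heterochromatin is densely methylated at cytosine and carries repressive histone marks, whereas male germ cells are known to hold less methylation in the satellite repeats. MeDIP recovers DNA fragments with an antibody against 5-methylcytosine, so a peak marks a place where methylated fragments piled up above their surroundings.

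All animals were of the outbred ICR strain. T2D fathers ate a high-fat diet, in which fat supplied 33% of the energy, up to 12 weeks of age. They then received a low dose of streptozotocin, a toxin of insulin-producing cells, and stayed on that diet. Only males whose fasting glucose lay between 7 and 11 mM over the next 4 weeks counted as T2D, and control fathers ate a control diet. Fathers were mated at 16 weeks with females on a standard diet. T2D islets came from 6 offspring of T2D fathers and control islets from 6 offspring of control fathers, all 3 weeks old. T2D sperm and control sperm came from 6 founders each at 16 weeks, after lysis of somatic cells. Each group had 1 library, the labels give neither the sex of the offspring nor how animals were combined, and the purity of the islets or the sperm cannot be checked with marker genes in methylation peaks. Per the file headers, the T2D sperm library held 34926725 tags and the control sperm library 34094381, where a tag is a sequenced read; for the islet libraries no total is given.

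The question put to these windows was whether methylation next to the centromere differs from the rest of the chromosome, between the offspring of T2D and control fathers, between T2D and control fathers, and between islets and sperm. Within a tissue each condition had 1 library, so a difference between T2D and control has no replicate check. Islets and sperm had 2 libraries each, and an exact two-sided permutation test of 2 against 2 cannot give a p below 0.333, which is the value it gave for all 5 measures compared between tissues in this way. The 95% intervals cover counting error only, and they are too narrow where neighbouring peaks or PCR copies are not independent. The spread over the 19 autosomes is therefore given beside them. Tissue goes together with age and generation, and possibly with sequencing depth and the settings of the peak caller, and the contributions of these to a difference between islets and sperm cannot be told apart.

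Islets carried about as many peaks per Mb in the windows as in the whole rest of the autosomes, and sperm carried fewer. T2D islets had 68.9 peaks per Mb in the proximal windows (66.7 to 71.1) against 67.8 in the rest, a ratio of 1.02 (0.984 to 1.05). Control islets had 68.2 (66.1 to 70.4) against 68.1, a ratio of 1.00 (0.970 to 1.03). T2D sperm had 65.3 (63.2 to 67.4) against 73.4, a ratio of 0.890 (0.861 to 0.919), and control sperm had 66.3 (64.2 to 68.4) against 72.8, a ratio of 0.910 (0.881 to 0.940). The interval of the ratio held 1 in both islet lists and lay below it in both sperm lists. The islet ratios depended on the boundary and the score: with the boundary at 9 Mb they were 0.955 in T2D and 0.936 in control islets, and with scores of at least 100 they were 1.11 and 1.08. The share of sequence under peaks showed the same pattern: 6.73% of the windows against 6.80% of the rest in T2D islets, 6.51% against 6.57% in control islets, 6.79% against 8.08% in T2D sperm and 7.00% against 8.07% in control sperm. The median gap between neighbouring peaks was 8.10 kb in the windows against 7.79 kb in the rest for T2D islets, and 7.62 kb against 6.85 kb for T2D sperm.

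The deficit of sperm peaks was steepest at the very edge of the assembled sequence. In the first 250 kb, a distance chosen after the profile had been seen, T2D islets had 297 peaks and control islets 291, which is 62.5 and 61.3 per Mb. T2D sperm had 187 peaks there and control sperm 205, or 39.4 and 43.2 per Mb. Both sperm values lay below every other 250 kb bin of the windows, in which T2D sperm ranged from 60.0 to 75.6 and control sperm from 59.2 to 78.1 per Mb. The islet values of the first bin lay within the range of the other islet bins. Peaks covered 6.58% of the first 250 kb in T2D islets and 6.28% in control islets, against 4.09% in T2D sperm and 4.57% in control sperm.

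**Figure D1:**
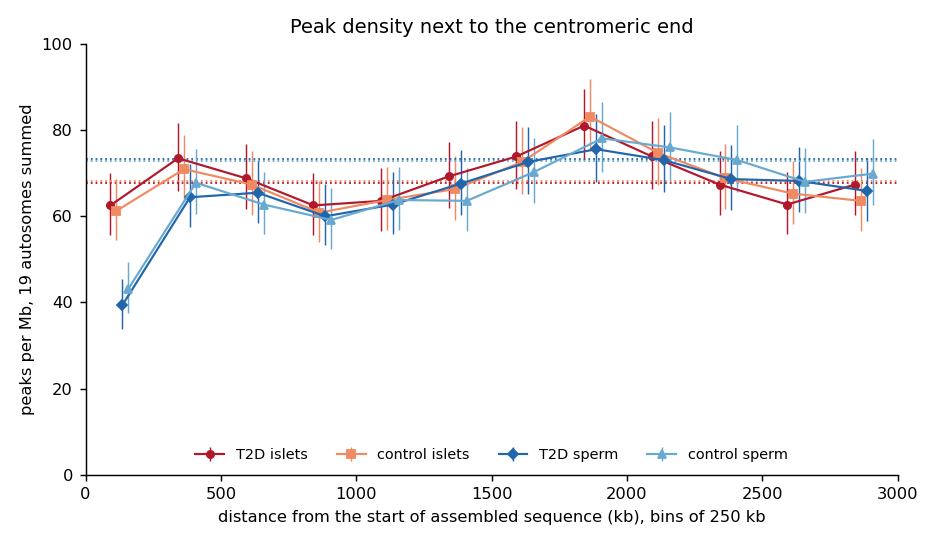
Peaks per Mb in bins of 250 kb, summed over the 19 autosomes, against the distance from the first assembled base; symbols are the 4 libraries, bars are 95% Poisson intervals and dotted lines give each library's density in the rest of the autosomes. The sperm libraries start at 39.4 and 43.2 peaks per Mb in the first bin while the islet libraries start at 62.5 and 61.3, and the 4 curves run close together from about 500 kb onwards.

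Islets were then set over sperm within a condition, that is, islets of the offspring of T2D fathers over sperm of T2D fathers (the T2D pair) and likewise for controls. The T2D pair had a count ratio of 1.59 (1.32 to 1.92) in the first 250 kb, compared with 0.924 in the rest of the autosomes. The control pair had a ratio of 1.42 (1.18 to 1.71), compared with 0.935. Relative to the rest, islet peaks were thus 1.72 times (1.43 to 2.06) as frequent in the T2D pair and 1.52 times (1.27 to 1.82) in the control pair. The density of the first 250 kb over that of the rest was 0.922 in T2D islets and 0.900 in control islets, against 0.536 in T2D sperm and 0.593 in control sperm (exact permutation test, two-sided p = 0.333, n = 2 and 2). From 250 to 500 kb the relative ratio was 1.23 (1.06 to 1.44) in the T2D pair and 1.12 (0.961 to 1.30) in the control pair. Over the whole windows it was 1.14 (1.09 to 1.19) and 1.10 (1.05 to 1.15) in the same order. More islet than sperm peaks were also found beyond the windows, in every 1 Mb bin from 14000 to 18000 kb in both pairs. From 16000 to 17000 kb there were 992 against 902 in the T2D pair and 953 against 893 in the control pair. From 4000 to 14000 kb sperm had more peaks in every such bin. An islet excess over whole Mb was thus not particular to the windows.

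The excess of islet peaks in the first 250 kb was spread over the chromosomes. T2D islets had more peaks than T2D sperm on 18 of 19 autosomes, the exception being chromosome 11 with 13 against 15. Control islets had more than control sperm on 16 autosomes, with chromosomes 2, 10 and 11 as exceptions. Chromosome 18 showed 23 peaks in T2D islets and 18 in control islets against 7 in T2D sperm and 8 in control sperm. Chromosome 9 showed 15 and 14 in T2D and control islets against 3 and 5 in T2D and control sperm. Leaving out any 1 autosome kept the count ratio between 1.52 and 1.66 in the T2D pair and between 1.38 and 1.51 in the control pair.

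The first peak of a chromosome lay a median of 16.1 kb from the sequence start in T2D islets and 20.5 kb in control islets, against 31.6 kb in T2D sperm and 25.7 kb in control sperm. In the T2D pair the first islet peak was nearer than the first sperm peak on 17 of 19 autosomes, and in the control pair on 11. The nearest of all was 0.263 kb from the start, on chromosome 15 in T2D islets. On chromosome 14 the first islet peaks lay 71.9 kb from the start in both conditions, whereas the first sperm peaks lay 651 kb away in both.

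Individual autosomes differed far more in their proximal windows than in their remaining length. T2D islets averaged 68.9 ± 22.8 peaks per Mb over the 19 windows, against 68.5 ± 5.48 over the 19 remainders (SD, n = 19 autosomes). Control islets averaged 68.2 ± 24.2 against 68.9 ± 5.86. T2D sperm averaged 65.3 ± 27.9 against 74.2 ± 6.24, and control sperm 66.3 ± 28.9 against 73.6 ± 6.30. A window of 3 Mb is a small sample of a chromosome, and the spread of other windows of that size was not measured. The proximal window was the denser one on 10 of 19 autosomes in T2D islets, 8 in control islets, 7 in T2D sperm and 8 in control sperm. The mean shortfall of sperm was thus smaller than the spread between autosomes, and it was not shared by all of them.

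The densest windows were those of chromosome 19 in islets, with 102 peaks per Mb in T2D and 106 in control islets, and of chromosome 2 in sperm, with 105 in T2D and 106 in control sperm. The window was denser than its own remainder in all 4 libraries on 6 autosomes, chromosomes 2, 6, 11, 12, 17 and 19. It was sparser in all 4 on 8 autosomes, chromosomes 1, 3, 4, 9, 10, 13, 14 and 15. On chromosome 3, for example, the window held 40.3 peaks per Mb in T2D islets and 38.0 in control islets, against 26.3 in T2D sperm and 27.3 in control sperm.

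The emptiest window was that of chromosome 14, with 6.00 peaks per Mb in T2D islets, 5.67 in control islets, 4.00 in T2D sperm and 3.00 in control sperm. Of its 30 stretches of 100 kb, 17 held no peak in any list, and they were the only such stretches among the 570 of all windows. Mappability and copy number, which could not be measured from peak lists, were not tested as reasons for this gap. Without chromosome 14, an alternative added after the data were seen, T2D islets had a ratio of proximal to other density of 1.06 (1.03 to 1.10) and control islets one of 1.05 (1.01 to 1.08). T2D sperm then had 0.930 (0.900 to 0.961), and the ratio of control sperm was 0.953 (0.923 to 0.984). The islet intervals then lay above 1. Leaving out chromosome 2 instead, the autosome with most proximal peaks, moved the ratios the other way. T2D islets then had 0.994 (0.962 to 1.03) and control islets 0.976 (0.944 to 1.01), with 0.861 in T2D sperm and 0.881 in control sperm. Whether islets were level with the rest or slightly above it thus turned on which chromosome was left out.

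**Figure D2:**
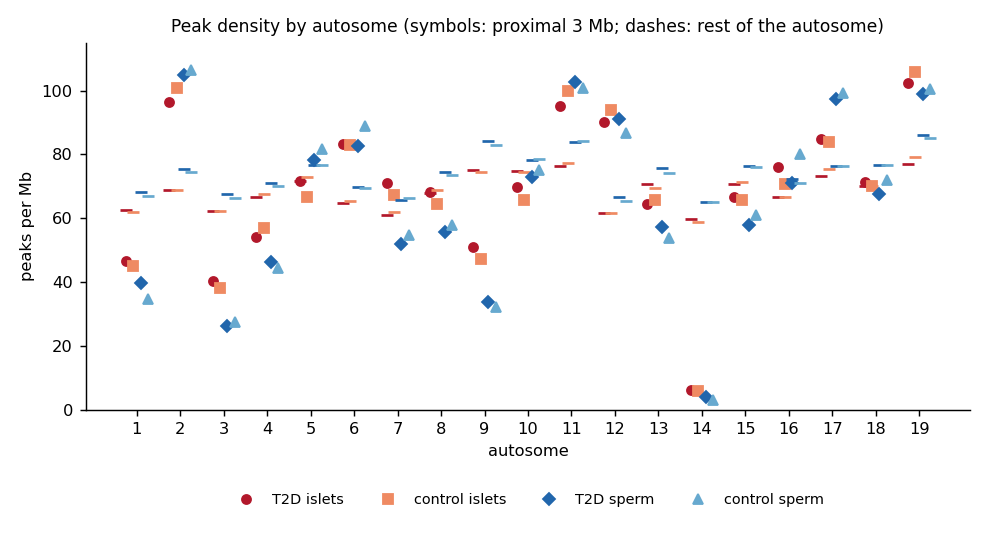
Peaks per Mb for each autosome; symbols give the proximal window of 3 Mb and short dashes the rest of the same autosome, for the 4 libraries. The symbols spread from 3.00 peaks per Mb on chromosome 14 to 106 on chromosomes 2 and 19, while the dashes stay between 58.8 and 86.0.

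Densities beyond the windows varied and overlapped those of the windows. In bins of 1 Mb, the first 3 Mb had 66.8, 71.9 and 67.8 peaks per Mb in T2D islets, whereas the bins from 3000 to 18000 kb ranged from 47.9 to 68.8. In T2D sperm the first 3 bins had 57.3, 69.6 and 68.9 peaks per Mb and the later ones ranged from 46.5 to 70.1. All of these later bins lay below the 73.4 per Mb of the rest as a whole. The highest later bin of control sperm had 70.8 per Mb, against 72.8 in its rest. A density below that of the rest was therefore not particular to the windows in sperm. The 6th Mb, with 68.8 in T2D islets and 70.1 in T2D sperm, was as dense as the windows, and the bins from 12000 kb onwards lay below all 3 window bins in these libraries. The first Mb was the lowest of the 3 in all 4 libraries, with 65.1 in control islets and 58.2 in control sperm.

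For orientation, the gene order at the centromeric ends of a few autosomes is known from RefSeq on GRCm38.p6, a later build than that of the peaks. Genes near that end include Cpt1a, which brings fatty acids into mitochondria, Lrp5, a Wnt coreceptor, and Gal, which encodes the neuropeptide galanin, on chromosome 19. They include Suv39h2, a histone H3 lysine 9 methyltransferase, on chromosome 2, the insulin receptor gene Insr on chromosome 8, and the DNA methyltransferase gene Dnmt3a with the prohormone gene Pomc on chromosome 12. An annotation of mm9 was not used here, so no peak was assigned to a gene or a repeat and no sequence is printed.

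Compared with the rest as a whole, peaks of the windows had much the same size and strength in islets. In sperm they were slightly narrower and less rich in tags. The median width was 888 bp (873 to 902) in the proximal windows against 901 bp in the rest for T2D islets, and 858 bp (847 to 870) against 868 bp for control islets. In T2D sperm it was 945 bp (931 to 956) against 983 bp, and in control sperm 959 bp (944 to 970) against 992 bp. The 1 Mb bins from 3000 to 18000 kb had medians of 864 to 972 bp in T2D sperm and 873 to 961 bp in control sperm. Narrower sperm peaks were thus not particular to the windows. The median tags per peak were 39 in the windows and 39 in the rest for both islet lists, against 45 and 50 in T2D sperm and 46 and 50 in control sperm, the proximal value first.

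Scaled to width, the median was 44.0 tags per kb (43.4 to 44.7) in the windows against 44.3 in the rest for T2D islets, and 45.9 (45.2 to 46.6) against 45.9 for control islets. T2D sperm had 48.4 (47.7 to 49.1) against 50.8 tags per kb, and control sperm 48.8 (48.2 to 49.6) against 50.6. The autosomes were mixed here too: the window had the higher median on 6 of 19 autosomes in T2D islets, 6 in control islets, 3 in T2D sperm and 6 in control sperm. The caller's score, 10 times the negative log10 of its p-value, had a median of 86.0 in the windows against 83.5 in the rest in T2D islets and 87.0 against 83.9 in control islets. It was 86.0 against 85.8 in T2D sperm and 87.2 against 87.5 in control sperm. The authors' fold enrichment over background had medians of 7.33 in the windows against 7.25 in the rest for T2D islets and 7.48 against 7.33 for control islets. For T2D sperm it was 6.84 against 6.74, and for control sperm 6.92 against 6.77.

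The share of proximal peaks among the strongest islet peaks depended on how few were taken. The windows make up 2.36% of the autosomal length. Of all autosomal peaks they held 2.40% in T2D islets, 2.36% in control islets, 2.10% in T2D sperm and 2.15% in control sperm. Of the 1638 peaks with the best 1% of scores in T2D islets, 64 were proximal, or 3.91% (3.07 to 4.96), and of 1645 in control islets 56 were, or 3.40% (2.63 to 4.39). In T2D sperm 41 of 1768 were proximal, or 2.32% (1.71 to 3.13), and in control sperm 42 of 1755, or 2.39% (1.78 to 3.22). Among the best 10% of scores the shares were 2.79% (2.55 to 3.05) in T2D islets and 2.73% (2.49 to 2.99) in control islets, against 2.14% (1.94 to 2.37) in T2D sperm. For control sperm the share was 2.08% (1.88 to 2.30).

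Peak numbers near the centromere hardly differed between T2D and control. T2D islets had 37 peaks more than control islets, a ratio of 1.01 (0.965 to 1.06), and T2D sperm had 57 fewer than control sperm, a ratio of 0.985 (0.941 to 1.03). In the first 250 kb the ratio of T2D to control was 1.02 (0.865 to 1.204) in islets and 0.912 (0.744 to 1.12) in sperm. The intervals held 1 in each case, so no difference in number was detectable at this depth.

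About 7 in 10 proximal peaks had a partner, an overlapping peak in the other condition of the same tissue, as did peaks elsewhere. In T2D islets 1218 of 3926 proximal peaks had no partner in control islets, or 31.0%, where 32.5% of all autosomal peaks of that list had none. In control islets 1187 of 3889 had none in T2D islets, or 30.5%, against 32.7% of all. In T2D sperm 1118 of 3722 had none in control sperm, or 30.0%, against 30.5% of all, and in control sperm 1172 of 3779 had none in T2D sperm, or 31.0%, against 30% of all. These shares are near their backgrounds, and a peak without a partner is a place where the other list has no call, not a place where methylation was shown to differ.

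Expressed as shares with a partner, proximal islet peaks were matched slightly more often than the rest. T2D islets had 69.0% in the windows against 67.4% elsewhere, a difference of 1.54 percentage points (0.0546 to 2.98). Control islets had 69.5% against 67.3%, a difference of 2.18 points (0.699 to 3.63). With the rest weighted to the scores of the proximal peaks, these differences were 0.682 and 1.04 points in T2D and control islets, and with the boundary at 9 Mb that of T2D islets was -0.0401 points. T2D sperm had 70.0% against 69.5%, a difference of 0.465 points (-1.04 to 1.93), and control sperm 69.0% against 70.0%, a difference of -1.05 points (-2.56 to 0.423). The proximal share was the higher one on 13 of 19 autosomes in T2D islets, 15 in control islets, 9 in T2D sperm and 7 in control sperm.

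The median tag counts of matched peaks were level between conditions. Among 2708 matched proximal peaks of T2D islets, the median log2 ratio of T2D to control tags was 0.0, with quartiles of -0.28 and 0.29, and 107833 pairs elsewhere had the same median with quartiles of -0.27 and 0.30. Among 2604 proximal pairs of sperm the median was 0.0 with quartiles of -0.27 and 0.25. At least 2-fold more tags in T2D islets than in control islets were found in 51 proximal pairs, or 1.88%, and at least 2-fold fewer in 62, or 2.29%; over all autosomal pairs the shares were 2.22% and 1.8%. In sperm 41 proximal pairs, or 1.57%, were at least 2-fold higher in T2D and 45, or 1.73%, at least 2-fold lower, where all autosomal pairs had 1.63% and 1.87%.

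These larger tag differences went mostly with peak width. The 113 proximal islet pairs past 2-fold differed in width by a median factor of 1.90, and only 5 of them also differed 2-fold in tags per kb. The 86 proximal sperm pairs past 2-fold differed in width by a median factor of 2.08, and 2 of them also differed 2-fold in tags per kb. Where peaks of the 4 lists were merged into union regions, 593 proximal regions were called in 1 condition only in islets and also in 1 condition only in sperm. The condition was the same in both tissues in 306 of them, or 51.6% (47.6 to 55.6), against 50.3% (49.7 to 50.9) of 26447 such regions elsewhere.

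Sharing between tissues separated the windows from the rest as a whole more clearly, and in opposite directions for islets and sperm. Of the proximal peaks of T2D islets, 1787 of 3926 had no partner in T2D sperm, or 45.5%, where 41.3% of all autosomal peaks had none. For control islets it was 1674 of 3889, or 43.0%, where 40.2% of all had none in control sperm. For T2D sperm it was 1588 of 3722, or 42.7%, where 45.8% of all had none in T2D islets, and for control sperm 1565 of 3779, or 41.4%, where 44.2% of all had none in control islets.

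In T2D islets 54.5% of proximal peaks had a sperm partner, against 58.8% elsewhere, a difference of -4.29 percentage points (-5.87 to -2.72). In control islets it was 57.0% against 59.9%, a difference of -2.91 points (-4.49 to -1.35). The share of T2D sperm peaks with an islet partner was 57.3% against 54.2%, a difference of 3.17 points (1.55 to 4.76), and of control sperm peaks 58.6% against 55.7%, a difference of 2.87 points (1.28 to 4.45). In 1 Mb bins the islet shares lay above those of the windows from 3000 to 12000 kb. From 12000 to 18000 kb all lay below, at 50.2% to 54.1% in T2D and 50.5% to 55.5% in control islets. A low islet share was thus not particular to the windows. All sperm bins from 3000 to 18000 kb lay below the windows, at 50.9% to 55.2% in T2D and 51.8% to 58.4% in control sperm. Weighting the rest to the proximal scores gave -4.74 and -3.61 points for T2D and control islets and 3.15 and 3.02 points for T2D and control sperm. These shares move with how much sequence the partner list covers: T2D sperm peaks covered 6.79% of the windows against 8.08% of the rest, while T2D islet peaks covered 6.73% against 6.80%. The part of this coverage in the differences was not tested. Nearly equal numbers of proximal peaks had a partner, 2139 of T2D islets and 2134 of T2D sperm, and 2215 and 2214 for controls. The ratio of the islet share to the sperm share therefore follows the ratio of the peak counts, and the opposite directions are not independent of the densities. The islet share was lower in the window on 14 of 19 autosomes in the T2D pair and 13 in the control pair, and the sperm share was higher on 15 and 13.

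**Figure D3:**
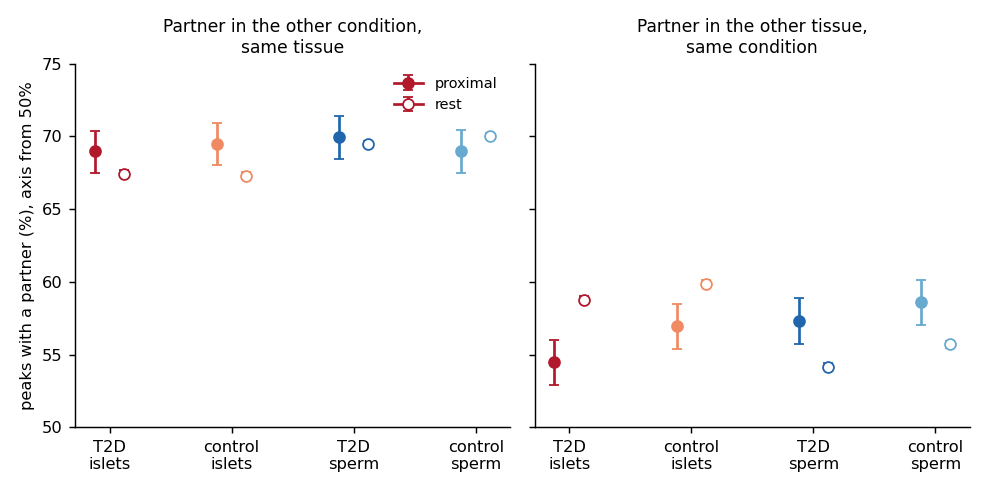
Share of peaks with an overlapping partner, in percent on an axis that starts at 50%, in the proximal windows (filled) and the rest of the autosomes (open) with 95% Wilson intervals; the left panel has partners in the other condition and the right panel in the other tissue. Filled and open symbols differ by at most 2.18 points on the left, whereas on the right the proximal share is lower in islets (54.5% against 58.8% for T2D) and higher in sperm (57.3% against 54.2% for T2D).

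The share of regions found in islets but not in sperm was higher towards the sequence start. Of 2697 proximal union regions called in both islet lists, 705, or 26.1% (24.5 to 27.8), had no sperm peak, where 22.3% of all such autosomal regions had none. Outside the windows the share was 22.2%, which leaves a difference of 3.97 points (2.33 to 5.68). The share was 38.7% (84 of 217 regions) in the first 250 kb, 29.9% (263 of 879) in the first Mb, 26.0% (245 of 941) in the second and 22.5% (197 of 877) in the third. Of 2599 proximal regions called in both sperm lists, 541, or 20.8% (19.3 to 22.4), had no islet peak, where 22.5% of all such regions had none. In the first 250 kb this was 25 of 138 regions, or 18.1%. The islet-only share exceeded that of the same autosome's remainder on 12 of 19 autosomes, and the sperm-only share on 6.

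Where both tissues had a peak, islets also held relatively more tags near the centromere. The log2 ratio of islet to sperm tags is given here after subtracting its median over all matched autosomal peaks of the same pair, since tag counts were not scaled to depth and no total is given for islets. In the first 250 kb it had a median of 0.55 (0.29 to 0.71) over 120 matched peaks of the T2D pair and 0.61 (0.41 to 0.72) over 135 of the control pair, which is a 1.47-fold and a 1.53-fold excess in islets. From 250 kb to 1 Mb the medians were 0.22 and 0.17 in the T2D and control pairs, and from 1 to 3 Mb 0.11 and 0.12. Over the whole windows they were 0.16 (0.12 to 0.19) and 0.15 (0.12 to 0.19), with values of 0.00 in the rest.

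The quartiles show how uneven this was from peak to peak: -0.10 and 1.09 in the first 250 kb for the T2D pair, and 0.07 and 1.26 for the control pair. Islet tags were at least 2-fold above the autosomal ratio in 33 of the 120 matched peaks of the T2D pair, or 27.5%, where 6.54% of all autosomal pairs were, and at least 2-fold below it in 2, where 4.76% were. In the control pair 45 of 135, or 33.3%, were at least 2-fold above, where 6.3% of all were, and 1 was at least 2-fold below, where 5.19% were. Tags per kb gave smaller medians in the first 250 kb, 0.26 (0.16 to 0.40) in the T2D pair and 0.30 (0.17 to 0.51) in the control pair, and widths gave 0.20 and 0.18. The median tag ratio in the first 250 kb was above that of all autosomes on 16 of the 18 autosomes with a matched pair there, in both conditions.

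**Figure D4:**
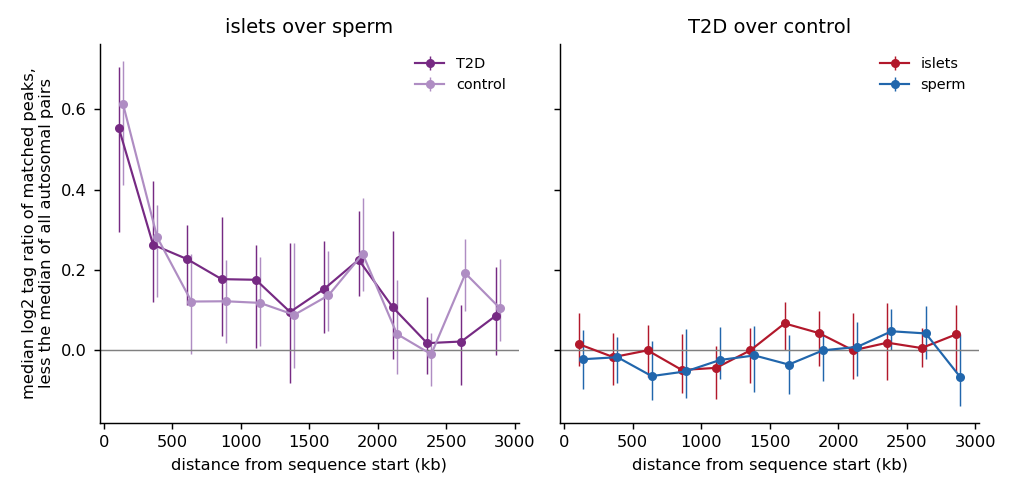
Median log2 tag ratio of matched peaks in bins of 250 kb against the distance from the first assembled base, less the median of all autosomal pairs, with 95% order-statistic intervals; islets over sperm on the left, T2D over control on the right. The islet-to-sperm medians are 0.55 (T2D) and 0.61 (control) in the first bin and fall off with distance, while those of T2D over control stay near 0 in both tissues.

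Of the 5 richest regions called in all 4 lists, 3 lay within 337 kb of the sequence start and had more tags in both islet libraries than in both sperm libraries, and the other 2 lay farther in and did not. They were ranked by the lowest of their 4 values of tags per kb. The first, chr4:3016230-3018936, is 16.2 kb from the start of chromosome 4 and had 797 tags in T2D islets and 753 in control islets, against 433 in T2D sperm and 419 in control sperm. Its tags per kb were 297 and 320 in T2D and control islets, against 174 and 163 in T2D and control sperm. The deposited enrichment there was only 3.98, 4.11, 4.55 and 4.25 in T2D islets, control islets, T2D sperm and control sperm, below the median of each list.

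The second, chr5:5673188-5674166, is 2673 kb from the start and had 76 tags in T2D islets and 78 in control islets, against 103 in T2D sperm and 114 in control sperm. The third, chr13:3336804-3338597, had 226 and 179 tags in T2D and control islets, against 158 and 169 in T2D and control sperm. The fourth, chr6:3150377-3152908, 150 kb from the start of chromosome 6, had 417 tags in T2D islets and 394 in control islets, against 199 in T2D sperm and 279 in control sperm. The fifth, chr17:4886919-4887808, had 87 and 76 tags in T2D and control islets, against 84 and 100 in T2D and control sperm, and there the tissues overlapped. Over all matched autosomal peaks the median log2 ratio of islet to sperm tags was -0.47 in each condition.

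The 6 proximal regions with the highest tag count in any list, a ranking made after the values were seen, include the regions of chromosomes 4 and 6 above and went both ways. On chr17:5006654-5010473 T2D islets had 139 tags and control islets 164, against 407 in T2D sperm and 378 in control sperm. On chr12:3109288-3111509 T2D islets had 404 tags and control islets 388, against 121 in T2D sperm and 119 in control sperm. The other two had a broad peak in control sperm and none in T2D sperm: chr19:5380838-5384265 had 382 tags in control sperm and no peak in any other list, and chr17:5234319-5237990 had 364 tags in control sperm, with 107 and 110 in T2D and control islets. Their scores in control sperm, 66.3 and 80.1, lay below the median of that list.

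Of the proximal regions called in both islet lists, 596 had no sperm call within 1000 bp. The share of such regions over all autosomes was not computed under this rule. By overlap alone, 26.1% of the proximal regions had no sperm peak, against 22.3% of all autosomal ones. The strongest of the 596 were ranked by the lower of their 2 scores. The leading one, chr6:4608574-4609823, had 139 tags in T2D islets and 133 in control islets. The region chr17:3049818-3050806, 49.8 kb from the start of chromosome 17, had 75 and 94 tags, chr6:3853989-3855278 had 118 and 101, and chr13:3607898-3608679 had 50 and 64, T2D islets before control islets each time. The last of these had the highest deposited enrichment of any proximal peak in T2D islets, 18.1, with 16.4 in control islets.

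Of the proximal regions called in both sperm lists, 450 had no islet call within 1000 bp, and here too no autosomal share was computed. By overlap alone, 20.8% of the proximal regions had no islet peak, against 22.5% of all autosomal ones. The strongest of the 450 were ranked in the same way. The region chr15:4618063-4618639 had 279 tags in T2D sperm and 258 in control sperm, which is 490 and 447 tags per kb. The region chr5:5803109-5803753 had 244 tags in T2D sperm and 232 in control sperm, and chr7:5803826-5805145 had 247 and 258. On chr7:3876676-3877808 T2D sperm had 123 tags and control sperm 157. Their deposited enrichments lay between 15.7 and 17.5. The absence of a call does not say that no methylated fragment was recovered in islets.

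**Figure D5:**
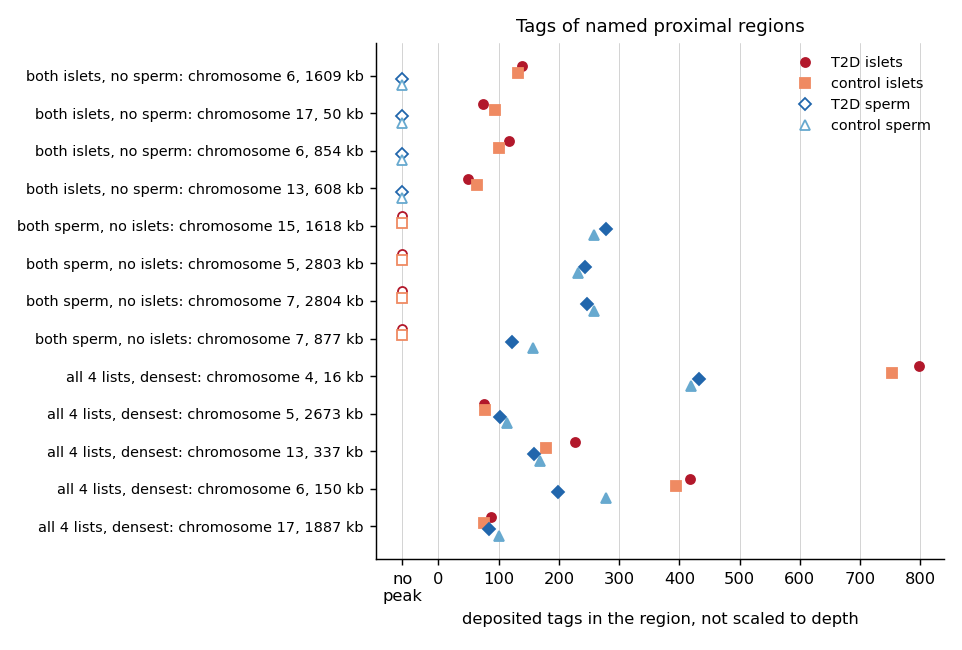
Deposited tag counts of the named proximal regions, by library, with open symbols at the left where a list has no peak; labels give the kind of region, the chromosome and the distance from the first assembled base. The choice of regions required both lists of a tissue and ranked by the lowest value, which favours similar T2D and control values. Pairs of 1 tissue ran from 797 and 753 in islets at 16 kb to 199 and 279 in sperm at 150 kb. Among the regions called in all 4 lists, those at 16, 150 and 337 kb have more tags in islets.

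Regions called in 1 condition only were ranked by deposited enrichment. The highest value among regions of T2D islets with no control islet peak within 1000 bp was 13.8, on chr12:4319483-4320152, with 38 tags; both sperm lists also had a peak there, with 34 tags in T2D and 42 in control sperm. Among the regions of control islets without a T2D islet peak it was 13.9, on chr12:5919861-5920946, with 36 tags, again with peaks in T2D sperm (43 tags) and control sperm (50 tags). Some had no peak in sperm either: on chr3:3774676-3775206 T2D islets had 32 tags and no other list had a peak, and on chr19:4231123-4231601 control islets alone had 40 tags. There were 1104 regions of the T2D-only kind and 1060 of the control-only kind in islets. The share of such regions over all autosomes was not computed under the 1000 bp rule. By overlap alone, 31.0% of proximal T2D islet peaks had no control partner, against 32.5% of all. For control islets it was 30.5% against 32.7%.

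In sperm there were 998 regions of T2D sperm with no control sperm peak within 1000 bp and 1023 of the converse kind. Their share over all autosomes was not computed either. By overlap alone, 30.0% of proximal T2D sperm peaks had no control partner, against 30.5% of all, and for control sperm it was 31.0% against 30%. The highest enrichment of the T2D-only regions was 13.5, on chr14:4398579-4399112, with 47 tags in T2D sperm and 20 in control islets. The highest of the control-only regions was 14.3, on chr9:5690621-5691616, with 51 tags in control sperm and peaks of 40 and 35 tags in T2D and control islets. Over the 16 regions that lead these rankings, 4 per library, the tag counts were 20 to 61 wherever a peak was listed; the broad control sperm peaks named above, with more tags but lower enrichment, are not among them.

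The largest tag differences between conditions in regions called in all lists were differences in peak width for the most part. On chr16:3516073-3517997 T2D islets had 104 tags against 23 in control islets, but 62.9 against 48.4 tags per kb. On chr17:5771897-5775075 T2D islets had 33 tags against 154 in control islets, with 46.9 against 48.4 tags per kb. On chr2:3484300-3487127 T2D sperm had 36 tags against 183 in control sperm, with 44.1 against 65.3 tags per kb, and on chr16:5519408-5521609 T2D sperm had 63 against 22, with 33.0 against 36.2 tags per kb.

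The 3 densest stretches of 100 kb in the windows lay farther from the centromere. The stretch of chromosome 17 that starts at 5200001 held 18 and 15 peaks in T2D and control islets and 14 and 17 in T2D and control sperm. Another stretch of chromosome 17, which starts at 5500001, held 13 and 11 in islets and 20 and 19 in sperm, in the same order. That of chromosome 2 from 5700001 held 14 and 14 in islets and 15 and 18 in sperm. The widest peak of each list spanned 3281 bp in T2D islets and 3370 bp in control islets, at the same place on chromosome 8. It spanned 3735 bp in T2D sperm and 3767 bp in control sperm, at the same place on chromosome 17. At the 6 Mb boundary, 1 peak of each sperm list on chromosome 16 started inside the window and ended outside, and no islet peak did.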

How the data were processed

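MeDIP-seq peak lists of 4 libraries were used. CASAVA 1.4 and mm9 are named in the submitters' processing notes. MACS, per the file headers of the sperm lists, was run without a control library on 49 bp reads at a p-value cutoff of 1.00e-05, keeping at most 2 reads per position; for islets these settings are not known. With no input library, copy number and mappability stay in the peaks. The deposited values are the tag count of a peak, a score of 10 times the negative log10 of the p-value (50 or more in every list), the ratio given as fold enrichment over background, and position and width, per the file headers. Counts were not scaled to depth; scores and enrichments describe, rank or filter peaks and have no common scale across libraries, although regions called in both lists of a tissue were ranked by the lower of their scores.

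Partners were peaks that overlap by at least 1 bp (bedtools 2.31.1); matched pairs used the best overlap. Union regions merged all lists. Shares have Wilson intervals, differences Newcombe intervals, count ratios exact Poisson intervals and medians order-statistic intervals, all at 95%; tissues were also compared over libraries by exact permutation, a test added after the data were seen (scipy 1.17.1, numpy 2.4.6). The overlap, density and interval steps were tested on simulated data. Regions were named by rank within fixed kinds: the strongest regions of 1 condition or 1 tissue, the richest in all lists, the largest and smallest ratios with at least 20 tags in both, and extremes of width and density. Of these, the leading ones are printed. The windows, kinds and comparisons were chosen with earlier results of these data known. RefSeq names come from GRCm38.p6; no coordinates were taken from it.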

Additional observations from a re-analysis of the deposited data

Results flagged for a closer look

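The density of proximal peaks relative to the rest lay on either side of 1 in the tissues, at 1.016 in T2D islets and 1.002 in control islets against 0.8895 in T2D sperm and 0.9103 in control sperm, although the islet intervals held 1 and the islet ratios fell below 1 with the boundary at 4.5 or 9 Mb. The share of peaks with a partner in the other tissue, proximal minus rest, was -4.294 points in T2D islets and -2.913 in control islets, and 3.166 points in T2D sperm and 2.871 in control sperm. These opposite signs are not independent of the densities. The number of proximal peaks in T2D minus control was 37 in islets and -57 in sperm, each within counting error of 0. For the density ratio and the partner share, an exact two-sided permutation test of 2 islet against 2 sperm libraries gave p = 0.333, the smallest it can give. The difference between tissues in T2D minus control was not tested, since each condition had 1 library per tissue.

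The X chromosome was outside the comparison. Its peaks that start before 6 Mb numbered 71 in T2D islets and 55 in control islets, against 26 in T2D sperm and 27 in control sperm. They were flagged only as counts above 3, the limit that a count of 0 allows, in a chromosome left out of the comparison. The gap between tissues ran over the whole chromosome: the rest of X had 21.2 peaks per Mb in T2D islets and 19.7 in control islets, against 10.6 in T2D sperm and 11.0 in control sperm. The sex of the offspring is not given in the labels, and its part in the X counts was not tested.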

How the results depend on the processing

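Of 222 values recomputed under alternatives, 188 stayed inside the 95% interval of the reported value, 33 left it, and 1 changed the sign of a difference whose interval had left out 0. Some of the 188 could not move. Leaving out the last 3 Mb did not enter the islet-to-sperm ratio of the first 250 kb. Equal list lengths kept every peak of T2D islets, so their density, width and tags per kb ratios were the reported ones. Counting also the results whose interval held no difference, 18 values lay on the other side of it: 3 of 10 for the density ratio in each islet list, 4 of 8 for tags per kb in control islets, 3 of 11 and 1 of 11 for the difference between conditions in control and T2D sperm, 1 of 11 in T2D islets, and 3 of 9 for the share of islet pairs past 2-fold. No paired analysis was possible because each group had 1 library and the labels give no shared replicate numbers; for the same reason no library could be left out. With the boundary at 4.5 Mb the density ratio was 0.983 and 0.955 in T2D and control islets and 0.817 and 0.824 in T2D and control sperm, the width ratio 0.961 in T2D islets and 0.943 in control sperm, and the ratio of tags per kb 0.937 and 0.947 in T2D and control sperm. The partner share difference was then -5.36 points between tissues in control islets and 0.478 between conditions in control sperm. With the boundary at 9 Mb the density ratio was 0.955 and 0.936 in T2D and control islets and 0.865 in control sperm, and the difference between conditions in T2D islets turned to -0.0401 points. At a score of at least 100 the density ratio was 1.11 and 1.08 in T2D and control islets, the difference between conditions was 3.38, 4.65, 2.48 and 0.793 points in T2D islets, control islets, T2D sperm and control sperm, that between tissues in control sperm was 4.90, and the relative islet-to-sperm ratio of the first 250 kb in controls was 2.01. With the best 50% of each list these were 1.07 and 1.06, 3.45 and 4.34 points in T2D and control islets, 4.49 points and 1.91, and the ratio of tags per kb in control islets was 0.983. Under a reciprocal overlap of 50% the difference between tissues in control islets was -1.17 points. Without chromosome 14 the density ratio was 1.06 and 1.05 in T2D and control islets and 0.930 and 0.953 in T2D and control sperm. The causes were not tested. Under every alternative run, the sperm density ratios stayed below 1 (0.817 to 0.953), the islet density ratios fell on either side of it, and the relative islet-to-sperm ratio of the first 250 kb stayed between 1.51 and 2.06. Leaving out chromosome 14, equal list lengths and all values of the first 250 kb were added after the data were seen.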
